A study of Mus musculus with 6 samples.

Results

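The miR-22 and miR-26 families were followed in small RNA from vesicles shed by dying osteoblasts, the cells that form bone. Every entry of the deposited table named miR-22, miR-26a or miR-26b, with any arm or copy suffix, was taken. That gave 7 of 1712 entries: mmu-miR-22-3p, mmu-miR-22-5p, mmu-miR-26a-5p, mmu-miR-26b-5p, mmu-miR-26b-3p, mmu-miR-26a-1-3p and mmu-miR-26a-2-3p. Mature miRNAs are named by the arm of the hairpin they come from (5p or 3p), and the prefix mmu-, for mouse, is dropped from here on. The control group held 3 libraries from mice of genotype SIRT6f/f, with both Sirt6 alleles floxed and no Cre named. The knockout group held 3 libraries from mice of genotype Prx1cre;SIRT6f/f. All mice thus carried the floxed alleles, and Prx1cre adds Cre recombinase under an enhancer active in the mesenchyme of the limbs, so that other lineages of these mice may keep Sirt6. Sirt6 encodes a deacetylase of histones. The osteoblasts of both groups were cultured, driven into apoptosis and kept 48 h without serum, and their vesicles were pelleted by ultracentrifugation. Neither the age of the mice nor the agent that induced apoptosis is stated in the labels. Small RNA does not show the deletion, so the genotype labels were not checked against the Sirt6 transcript. Whether replicates are separate animals or cultures is not stated, so p-values rest only on spread between these libraries, which may be technical. In the limma fit used below, that spread was taken from its trend with level over all tested entries.

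A miRNA is cut from a hairpin transcript as a short duplex, of which a single strand, the guide, is usually kept in the silencing complex while the other, the passenger, is mostly degraded. The guide pairs with messenger RNAs mainly through its seed, bases 2 to 8 from the 5′ end. Both families are known from bone: miR-26a has been described as a regulator of osteoblast differentiation and bone repair, acting on components of BMP and Wnt signalling, and miR-22 has been described as favouring the osteogenic over the adipogenic fate of stromal cells through a histone deacetylase. The miR-26 hairpins lie within genes for small phosphatases that act on RNA polymerase II. The miR-22 hairpin lies in a host transcript that encodes no known protein, and also in a transcript of Tlcd2, a protein-coding gene.

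The mature sequences are shown first because they define which entries can act through the same seed and which could share reads. Capitals mark the seed. All 7 entries matched a mature miRNA by name in RefSeq (GRCm38.p6).
miR-22-3p: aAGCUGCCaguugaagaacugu
miR-22-5p: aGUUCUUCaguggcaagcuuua
miR-26a-5p: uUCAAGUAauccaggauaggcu
miR-26b-5p: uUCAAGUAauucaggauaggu
miR-26b-3p: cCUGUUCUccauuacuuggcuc
miR-26a-1-3p: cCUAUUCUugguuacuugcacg
miR-26a-2-3p: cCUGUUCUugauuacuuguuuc

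miR-26a-5p and miR-26b-5p carry the same seed, and none of the other mouse mature miRNAs among the 1679 searched in RefSeq carries it. Counted from 1 at the 5′ end of miR-26a-5p, they differ at C11U and C21U and are identical at 19 of 21 shared positions. The labels do not say how reads matching both were assigned, so the split between them is uncertain. The seeds of miR-22-3p and miR-22-5p were found in no other of these RefSeq miRNAs. Of the 1528 annotated entries of the deposited table, 1304 matched a RefSeq sequence, and the others were not searched. The seed of miR-26b-3p is shared with miR-26a-2-3p, with miR-7039-3p (control mean 1.11, knockout mean 2.22 RPM) and with miR-6932-3p (0.740 and 0.979 RPM), where RPM is reads per 1000000 listed reads.

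The hairpins are shown next, with both mature arms in capitals, because the arms of a hairpin are compared below.
Mir22, chr11:75463716-75463810, plus strand: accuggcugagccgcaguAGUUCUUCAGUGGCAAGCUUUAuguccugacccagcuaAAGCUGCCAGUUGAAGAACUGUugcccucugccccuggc
Mir26a-1, chr9:119031796-119031885, plus strand: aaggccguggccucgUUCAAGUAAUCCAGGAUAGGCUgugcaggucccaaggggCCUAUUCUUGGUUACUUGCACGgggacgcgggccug
Mir26a-2, chr10:126995530-126995613, plus strand: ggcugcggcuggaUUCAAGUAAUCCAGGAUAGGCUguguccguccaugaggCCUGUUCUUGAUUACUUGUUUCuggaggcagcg
Mir26b, chr1:74394310-74394394, plus strand: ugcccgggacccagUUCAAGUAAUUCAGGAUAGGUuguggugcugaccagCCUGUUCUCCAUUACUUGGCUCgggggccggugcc

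In the GENCODE M21 annotation of GRCm38, Mir26a-1 lies in an intron of Ctdspl and Mir26b in an intron of Ctdsp1. Mir26a-2 is not contained in an exon of the Ctdsp2 transcript that spans it, and 2 annotated Ctdsp2 exons overlap part of it. Mir22 lies in an exon of Mir22hg, and also in an exon of a transcript of Tlcd2. Mir26a-1 and Mir26a-2 give the identical miR-26a-5p, so its reads cannot be assigned to either hairpin. Only the 3p arms tell the copies apart.

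The families covered a very wide range of levels, in the same order in both groups for the 3 guide strands. miR-26a-5p was the most abundant, with 42596, 38280 and 35284 RPM in control replicates 1, 2 and 3 and 26160, 27584 and 15804 RPM in knockout replicates 1, 2 and 3. By its mean over all libraries it was the third most abundant of 1528 annotated entries. Every knockout library lay below every control library, and knockout replicate 3 was the lowest. RPM are shares of reads from bulk vesicles, in which fewer source cells of a type and less RNA per cell or vesicle cannot be told apart.

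miR-22-3p had 5129, 3930 and 4563 RPM in the control and 2972, 2912 and 1478 RPM in the knockout libraries. The groups again did not overlap, and the lowest control library stood 1.32 times above the highest knockout library. miR-26b-5p, with the seed of miR-26a-5p, had 338, 320 and 345 RPM in the control and 213, 236 and 127 RPM in the knockout libraries. Its control libraries lay close together, with a coefficient of variation of 3.91% against 29.9% in the knockout group.

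The remaining entries were near the lower end of what the table resolves. miR-22-5p, the passenger arm of miR-22, had 7.93, 5.18 and 9.22 RPM in the control and 3.11, 5.65 and 1.63 RPM in the knockout libraries, with overlap. miR-26b-3p had 5.77, 2.96 and 4.30 RPM in the control and 6.22, 3.95 and 2.18 RPM in the knockout libraries, and the groups lay across each other. In level these passenger arms overlapped each other in both groups, while the 3 guide strands were apart in every library. In each library all RPM values were multiples of a common step, 0.5 of the smallest value above 0, to within 0.001 of a step. If a step stands for 1 read, these passenger arms rest on 3 to 15 reads per library, and the libraries hold 1352045 to 1838239 listed reads. On the same reading miR-26a-5p rests on 29052 to 59080 reads, miR-22-3p on 2716 to 7427 and miR-26b-5p on 234 to 561.

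The 3p arms of miR-26a were listed at 0 in all control libraries and in knockout replicate 2. miR-26a-1-3p had 1.24 RPM in knockout replicate 1 and 1.63 RPM in knockout replicate 3. miR-26a-2-3p had 1.24 RPM and 1.09 RPM in those libraries. These values are 2 or 3 steps, and 3 steps equal 1.63 to 2.22 RPM over the 6 libraries, so no fold change is given. No entry of the table stands at 1 step, and a listed 0 may therefore hide a single read.

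**Figure D1:**
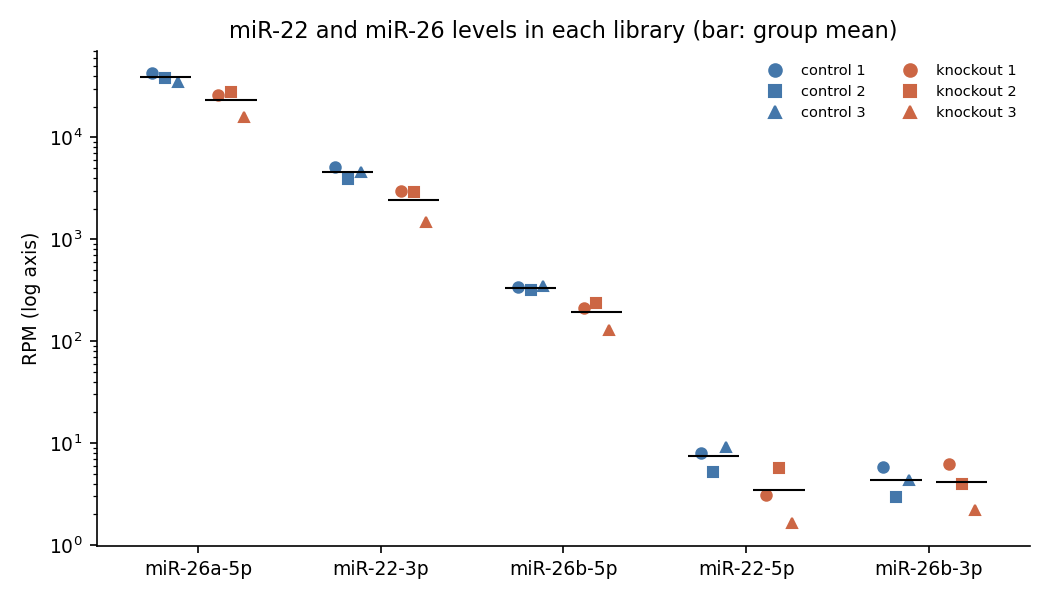
RPM of the 5 entries above the low-value filter in each of the 6 libraries, on a log axis; colours give the group, symbols the replicate number and bars the group mean. For miR-26a-5p, miR-22-3p and miR-26b-5p every knockout library lies below every control library, while miR-22-5p and miR-26b-3p overlap between 1.63 and 9.22 RPM.

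The comparison of knockout with control asks how loss of Sirt6 in this lineage goes with the miRNA content of the vesicles. Among the families, miR-22-3p alone passed the test, and it was lower. Its control mean was 4541 ± 600 RPM and its knockout mean 2454 ± 846 RPM (SD, n = 3 libraries each), a ratio of 0.540. In units of log2(RPM + 1) it fell by 0.95 (SE 0.30, 95% interval -1.53 to -0.37, limma adjusted p = 0.0378 over 1114 entries tested). The test was limma with a mean-variance trend, 2-sided, on entries with at least 1 RPM in at least 3 libraries, adjusted by Benjamini-Hochberg. Of all tested entries, 4.85% were called, 2.69% lower and 2.15% higher, and 153 entries had a lower log2 value than miR-22-3p.

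The call of miR-22-3p was not firm. In this fit limma set the spread of each entry from the trend alone, and without the trend the SE went from 0.30 to 0.45 (limma adjusted p = 0.436). The call was also lost in each of the 6 fits with a library left out. Without knockout replicate 3 the difference was -0.62 (limma adjusted p = 0.0561), and without control replicates 1, 2 and 3 the limma adjusted p was 0.254, 0.191 and 0.350. Over 17 alternatives its limma adjusted p ran from 0.0230 to 0.450.

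miR-26a-5p did not pass the test. Its control mean was 38720 ± 3676 RPM and its knockout mean 23183 ± 6429 RPM (SD, n = 3 each), a ratio of 0.599. The log2 difference was -0.78 (95% interval -1.47 to -0.09, limma adjusted p = 0.185). The means of miR-26b-5p were 334 ± 13.0 and 192 ± 57.4 RPM, a ratio of 0.575 and a log2 difference of -0.84 (95% interval -1.43 to -0.26, limma adjusted p = 0.0706). It passed when only entries averaging 10 RPM or more were tested (limma adjusted p = 0.0341, with a range of 0.0341 to 0.507 over its alternatives). The passenger arms did not pass either. miR-22-5p had a log2 difference of -0.99 with a 95% interval of -2.25 to 0.27, and miR-26b-3p one of -0.11 with a 95% interval of -1.43 to 1.22. Both intervals include 0.

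Of the 5 members that could be tested, 1 was called lower and 0 higher by limma (3 lower and 0 higher at an unadjusted p under 0.05), and all 5 had a log2 difference below 0, with a median of -0.84. Over all 1114 tested entries the median was -0.27 and 60.1% lay below 0. The families include abundant entries, and abundant ordinary annotated miRNAs had lower values in general. The 47 of them averaging 1000 RPM or more had a median of -0.66, with 80.9% below 0. Ordinary here means all annotated entries except miR-6236, miR-6238, miR-6239, miR-6240 and miR-3968, set apart as possible fragments of other RNAs. The groups did not overlap, with the knockout lower, for 3 of the 5 members. The same held for 19.3% of all tested entries and for 43.5% of those averaging 10 RPM or more, the range in which these 3 members lie.

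**Figure D2:**
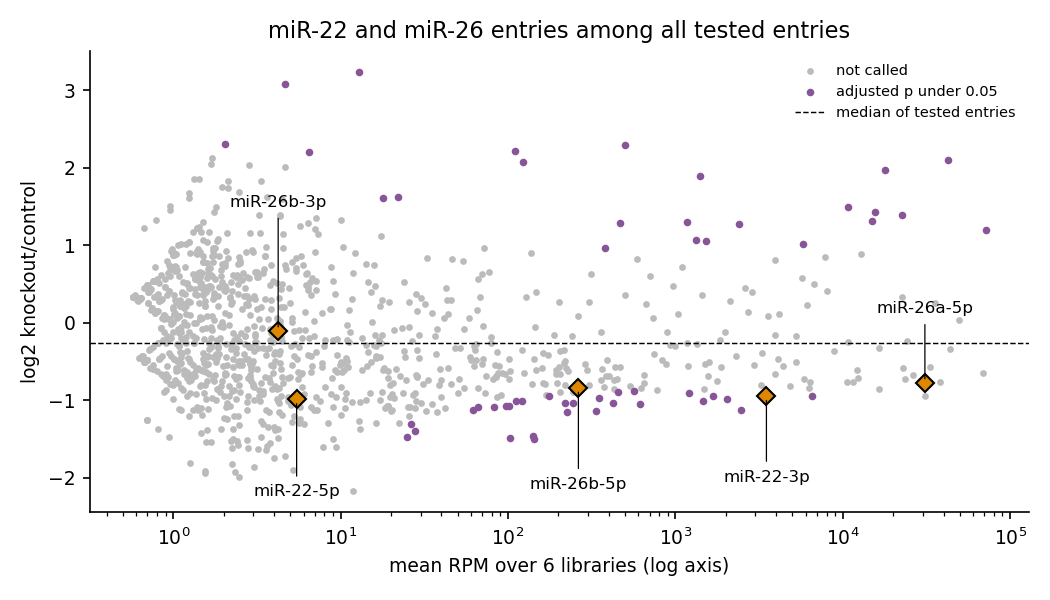
Log2 difference, knockout over control, of all 1114 tested entries against their mean RPM over 6 libraries (log axis); diamonds are the 5 tested miR-22 and miR-26 entries and the dashed line is the median of -0.27. The 3 guide strands lie among the other abundant entries below the line, and only miR-22-3p of the 5 is past the threshold.

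The make-up of the libraries moved with these differences. Ordinary annotated miRNAs took 53.0%, 48.0% and 48.2% of the listed reads in control replicates 1, 2 and 3, against 38.1%, 40.8% and 30.1% in the knockout libraries. Entries with only a numeric ID took 43.1%, 50.0% and 49.6% in the control and 54.3%, 52.8% and 62.8% in the knockout libraries. The 5 entries set apart as possible fragments took 3.83%, 1.96% and 2.22% in the control and 7.62%, 6.42% and 7.15% in the knockout libraries. They did not all move alike: miR-6236, miR-6238 and miR-6239 were called higher, and miR-6240 was not called (limma adjusted p = 0.378). miR-3968 was called lower, with a log2 difference of -1.49 (limma adjusted p = 0.00061). The groups did not overlap in the share of ordinary miRNAs, of unnamed entries or of possible fragments (exact 2-sided permutation p = 0.1 each), and the part of these shares in the members' differences was not tested beyond the scaling that follows. Because RPM is relative to all listed reads, the members were also expressed per 1000000 ordinary miRNA reads.

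On that scale the differences of the 3 guide strands and of miR-22-5p were smaller, that of miR-26b-3p turned from -0.11 to 0.25, and 0 of the 5 passed the limma test (1 lower and 0 higher at an unadjusted p under 0.05). miR-22-3p had 9671, 8184 and 9468 in the control and 7800, 7138 and 4908 in the knockout libraries per 1000000 ordinary miRNA reads. The groups still did not overlap, but the log2 difference went from -0.95 to -0.48 (95% interval -0.94 to -0.03, limma adjusted p = 0.297). miR-26a-5p had 80319, 79707 and 73213 in the control and 68670, 67615 and 52497 in the knockout libraries, with a log2 difference of -0.31 (95% interval -0.84 to 0.21, limma adjusted p = 0.608). Per 1000000 ordinary miRNA reads miR-26b-5p had 638, 665 and 715 in the control and 560, 579 and 423 in the knockout libraries, with a log2 difference of -0.38 (95% interval -0.79 to 0.03, limma adjusted p = 0.381). The groups did not overlap on this scale, with the knockout lower, for each of the 3 guide strands. Across all tested entries 8.71% were lower without overlap on this scale, and 0.18% were called lower. The median log2 difference on this scale was 0.06 over all tested entries. It was -0.15 over ordinary annotated miRNAs averaging 10 RPM or more and -0.20 over those averaging 1000 RPM or more. The share without overlap among entries averaging 10 RPM or more was not computed on this scale.

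On either scale knockout replicate 3 had the lowest value of these 3 miRNAs. When it was left out and ordinary scaling was kept, an alternative added after the data were seen, the log2 differences were -0.28 for miR-22-3p, -0.19 for miR-26a-5p and -0.24 for miR-26b-5p, with limma adjusted p = 0.450, 0.721 and 0.507. With RPM and without this library miR-26a-5p had -0.52 and miR-26b-5p -0.57.

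**Figure D3:**
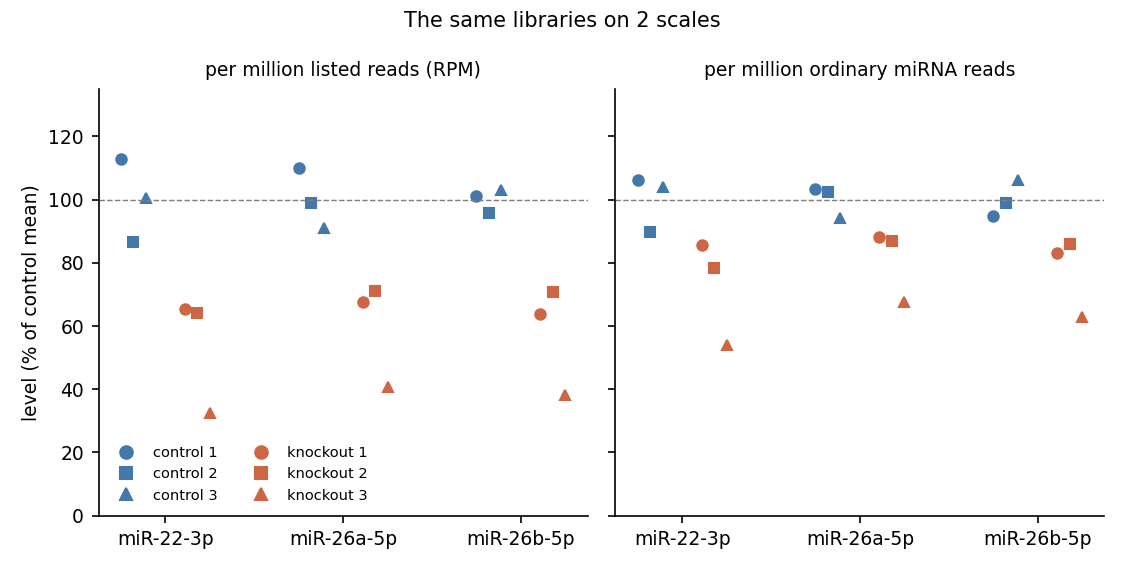
Level of the 3 guide strands in each library as a percentage of the control mean, per 1000000 listed reads (left) and per 1000000 ordinary miRNA reads (right), with axes starting at 0. The knockout libraries lie below the control libraries on both sides and nearer to them on the right, where miR-22-3p had 7800, 7138 and 4908 against 8184 to 9671 in the control.

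**Figure D4:**
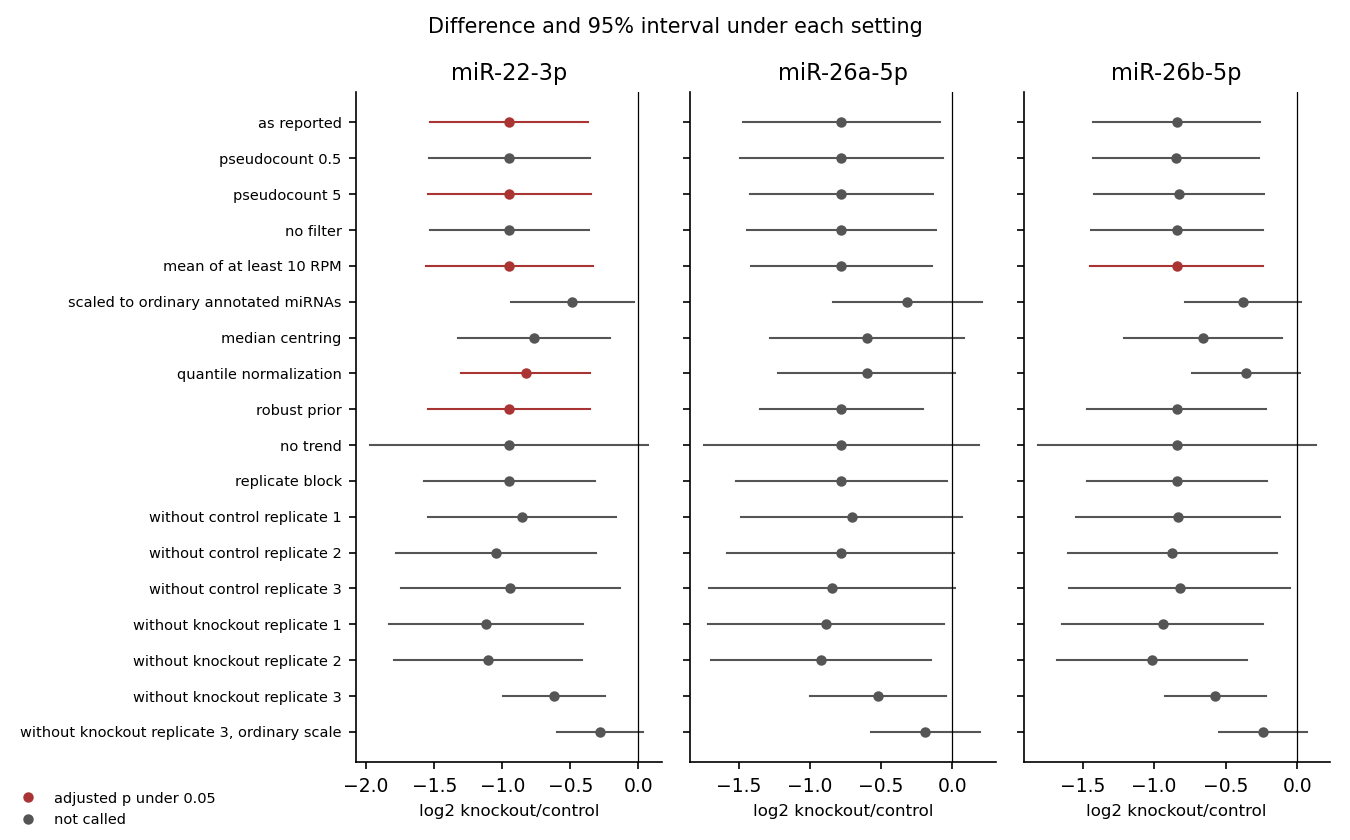
Log2 difference (point) and its 95% interval (line) for the 3 guide strands, as reported and under each alternative; red marks a limma adjusted p under 0.05. All points lie below 0, from -1.12 to -0.28 for miR-22-3p, and red appears for miR-22-3p in 5 settings, for miR-26b-5p in 1 and for miR-26a-5p in none.

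Ranks within a library do not depend on its total, but they do depend on which other entries rise or fall. Among annotated entries miR-26a-5p ranked 3, 3 and 4 in the control and 5, 5 and 8 in the knockout libraries, where rank 1 is the most abundant. miR-22-3p ranked 23, 26 and 23 in the control and 30, 31 and 38 in the knockout libraries. For both miRNAs the ranks of the groups did not overlap, and the share of all entries for which this held was not computed. The possible fragments are among the entries ranked. In control and knockout means, miR-6236 had 7596 and 28386 RPM and miR-6239 12861 and 32487 RPM, beside 38720 and 23183 RPM for miR-26a-5p. Their part in the ranks was not tested. miR-26b-5p ranked 87, 84 and 81 in the control and 92, 87 and 96 in the knockout libraries, sharing rank 87.

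As a share of all listed reads, the 7 entries together took 4.81%, 4.25% and 4.02% in the control and 2.94%, 3.07% and 1.74% in the knockout libraries. The miR-26 total, nearly all of it miR-26a-5p, went from 39058 ± 3675 to 23381 ± 6487 RPM (SD, n = 3 each, exact 2-sided permutation p = 0.1). The miR-22 total went from 4548 ± 601 to 2457 ± 847 RPM (exact 2-sided permutation p = 0.1). With 3 libraries against 3, 0.1 is the smallest p this test can give. As a share of ordinary miRNA reads, miR-26 took 8.10%, 8.04% and 7.39% in the control and 6.93%, 6.82% and 5.29% in the knockout libraries.

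Ratios within a library were then compared, since they too are free of the library total. The miR-26a-5p to miR-26b-5p ratio was 126, 120 and 102 in the control and 123, 117 and 124 in the knockout libraries. The ratio thus stayed within a narrow range in all 6 libraries and the groups overlapped (log2 difference 0.06, exact permutation p = 0.7, adjusted p = 0.933 over 4 ratios). The ratio of miR-22-3p to miR-26a-5p was 0.120, 0.103 and 0.129 in the control and 0.114, 0.106 and 0.0935 in the knockout libraries, with overlap (log2 difference -0.17, exact permutation p = 0.3, adjusted p = 0.6). A larger difference for miR-22-3p than for miR-26a-5p was therefore not shown.

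The arm ratios put the dominant strand far above its partner in every library. miR-22-3p exceeded miR-22-5p 647, 759 and 495 times in the control and 956, 516 and 905 times in the knockout libraries, and the groups overlapped (log2 difference 0.04, exact permutation p = 1.0). miR-26b-5p exceeded miR-26b-3p 58.6, 108 and 80.1 times in the control and 34.3, 59.7 and 58.5 times in the knockout libraries. On these ratios control replicate 1 lay between the knockout libraries. The test used ratios of RPM + 1, on which the groups did not overlap (log2 difference -0.73, exact permutation p = 0.1, adjusted p = 0.4). It rests on the 4 to 10 steps of miR-26b-3p in each library. The ratio of miR-26a-5p to its 3p arms was not compared because those arms were listed at 0 in 4 of 6 libraries.

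**Figure D5:**
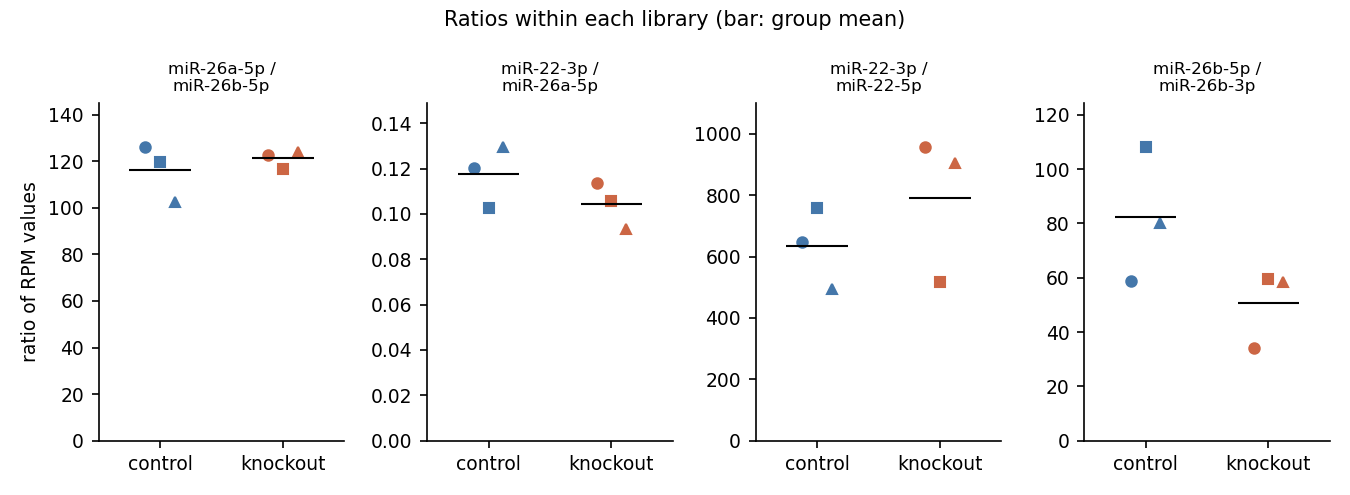
Ratios of RPM values within each library for the 4 pairs compared, with axes starting at 0; blue is control, orange knockout, circles, squares and triangles are replicates 1, 2 and 3, and bars are group means. The miR-26a-5p to miR-26b-5p ratio spans 102 to 126 over all 6 libraries.

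The annotated entries most like each guide strand were found from the root mean square difference of log2(RPM + 1) profiles, each centred on its own mean over the 6 libraries. It was computed against the 273 other annotated entries that averaged 10 RPM or more. For miR-26a-5p they were miR-99a-5p (0.03), miR-125b-2-3p (0.04), miR-100-5p (0.04), miR-27b-3p (0.07) and miR-140-3p (0.07), against a median of 0.29 over all entries compared. miR-99a-5p and miR-100-5p are abundant mesenchymal miRNAs, and miR-140 is known from cartilage. The closest, miR-99a-5p, had means of 47235 ± 4464 RPM in control and 28655 ± 8005 RPM in knockout libraries (SD, n = 3 each).

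For miR-22-3p the closest were miR-193b-3p (0.06), miR-423-3p (0.07), miR-181a-5p (0.07), miR-3473e (0.09) and miR-872-3p (0.10), against a median of 0.33. Of these miR-193b-3p and miR-423-3p passed the test, at -1.01 (limma adjusted p = 0.0426) and -0.97 (limma adjusted p = 0.0296). The profiles include the group difference, so differences near that of miR-22-3p follow from how these entries were picked. For miR-26b-5p they were miR-92a-3p, miR-148a-3p, let-7b-5p and let-7f-5p, each at 0.06, and miR-125b-1-3p at 0.07, against a median of 0.30. The members were less close to each other than to these nearest entries. miR-26a-5p was number 18 in the order for miR-26b-5p, and miR-26b-5p number 19 in that for miR-26a-5p (0.10). For miR-22-3p, miR-26b-5p was number 25 (0.13) and miR-26a-5p number 35 (0.15). In turn miR-22-3p was number 31 in the order for miR-26b-5p and number 50 in that for miR-26a-5p. All of these distances lay below the medians given. These distances are descriptions of 6 libraries that share their totals.

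The entries next to the members in mean level had differences of several sizes. miR-143-3p and miR-125b-5p, directly above and below miR-26a-5p, had log2 differences of -0.94 and -0.79, and miR-143-3p had -0.51 without knockout replicate 3. miR-2137 and miR-34c-5p, around miR-22-3p, had 0.08 and -0.39. miR-196a-5p and miR-744-5p, around miR-26b-5p, had -0.53 and -0.85. None of these 6 neighbours passed the test, and their differences from the members were not tested.

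Other miRNAs with described roles in osteoblast differentiation were taken from a list of 53 that leaves out the members. Of these, 50 were in the table and 47 were tested. 2 were called lower (4.26%, beside 2.69% of all tested entries) and 0 higher by limma (16 lower and 0 higher at an unadjusted p under 0.05). The median was -0.54, beside -0.27 over all tested entries and -0.59 over the ordinary annotated miRNAs averaging 10 RPM or more. Without knockout replicate 3 the list's median was -0.33, and 2 entries were called lower. miR-29a-3p, a regulator of collagen genes, had control and knockout means of 3361 ± 609 and 1601 ± 559 RPM and fell by 1.12 in log2 units (limma adjusted p = 0.00664). miR-214-3p, described as an inhibitor of bone formation, fell by 1.05 (limma adjusted p = 0.0118), and had -0.63 without knockout replicate 3. Per 1000000 ordinary miRNA reads they had -0.66 and -0.59, and the list's median was -0.09. On that scale 0 of the 47 passed the limma test in either direction (4 lower and 3 higher at an unadjusted p under 0.05).

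The most abundant members of this list did not pass: miR-143-3p and miR-125b-5p had the values above, miR-21a-5p had -0.24, miR-100-5p -0.72, miR-34c-5p -0.39 and miR-23a-3p -0.54. Per 1000000 ordinary miRNA reads miR-21a-5p and miR-34c-5p turned to 0.22 and 0.07. miR-26a-5p, at -0.78, and miR-22-3p, at -0.95, thus stood within the range of values on the list, from miR-21a-5p to miR-29a-3p among those named.

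The cell type of the label was compared with marker miRNAs. Mesenchymal miRNAs, of which 25 of 26 were listed, summed to 272418 to 309798 RPM in the control and 124009 to 217863 RPM in the knockout libraries. Blood cell miRNAs (9 of 10 listed) summed to 632 to 893 and 270 to 496 RPM, and endothelial ones (4 of 4) to 85.1 to 105 and 23.4 to 52.2 RPM. Epithelial miRNAs (6 of 6) summed to 21.4 to 25.2 and 16.9 to 31.1 RPM, muscle miRNAs (3 of 4, most of it miR-206-3p) to 71.0 to 85.1 and 40.3 to 57.6 RPM, neural miRNAs (2 of 5, with no entry for miR-124-3p) to 17.2 to 34.0 and 4.35 to 23.7 RPM, and liver and gut miRNAs (4 of 4) to 404 to 418 and 215 to 435 RPM. The mesenchymal sum was thus by far the largest. No miRNA defines the osteoblast alone, and sums over lists of unequal length do not establish the cell source. The mesenchymal, blood cell, endothelial and muscle sums were lower in the knockout libraries without overlap, and the ranges of the other sums overlapped. On RPM, 43.5% of single entries averaging 10 RPM or more were also lower without overlap. The sums were not scaled to ordinary miRNAs. Most of the blood cell sum was miR-486b-5p, with means of 570 RPM in control and 282 RPM in knockout libraries. Of the 8 blood cell miRNAs tested, 7 had log2 differences below 0, and miR-155-5p had 0.78. The part of these cell types in the members' differences was not tested.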

How the data were processed

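Small RNA of 6 vesicle libraries (3 control, 3 knockout) was analysed from 1 table in which the authors deposited RPM values, where each column sums to 1000000 over all 1712 entries. The tools fastp and edgeR are named, per the submitters' processing notes, without role or version. The aligner, miRNA annotation and genome build were not given in the sources used here. Since the total is fixed, a higher value of an abundant entry means lower RPM elsewhere. Groups and replicate numbers came from the sample titles.

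Entries with at least 1 RPM in at least 3 libraries (1114) were tested with limma 3.58.1 in R 4.3.3, with a trend, on log2(RPM + 1), which understates changes of low entries. Totals and ratios were compared by exact 2-sided permutation, and ratios were taken on log2(RPM + 1). The fit was also run on simulated libraries with the same spread setting for all entries and no shift in make-up. That run therefore does not test the calls made here. The members and lists were chosen with earlier results of these data known. Named entries were the members, the 5 nearest profiles and the level neighbours of each guide strand, entries sharing a seed, and from the osteoblast list the 6 most abundant and those past the threshold. Sequences are from RefSeq (GRCm38.p6), matched by name for 1304 of 1528 annotated entries. Alternatives changed the pseudocount, filter, scaling, prior, replicate block and libraries. Depth is given only as steps of RPM, and intervals cover the spread between libraries as modelled by limma.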

Additional observations from a re-analysis of the deposited data

How the results depend on the processing

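Over 17 alternatives the log2 differences of miR-22-3p, miR-26a-5p and miR-26b-5p, and over 16 that of miR-22-5p, stayed below 0. The call of miR-22-3p was kept in 4 (pseudocount 5, a minimum mean of 10 RPM, quantile normalization and a robust prior) and lost in 13. Its log2 value was -0.95 with pseudocount 0.5 (limma adjusted p = 0.0560), with no filter (0.0610) and with no trend (0.436), -0.48 with scaling to ordinary miRNAs, -0.77 with median centring (0.112), -0.28 with that scaling and without knockout replicate 3, and -1.12 to -0.62 with a library left out. miR-26b-5p passed only with a minimum mean of 10 RPM (-0.84). miR-26b-3p turned to 0.25 with scaling to ordinary miRNAs, 0.075 with median centring, 0.11 with quantile normalization, 0.47 with that scaling and without knockout replicate 3, and lay at -0.40 to 0.20 with a library left out. The cause of the lost calls was not tested.

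The 24 higher and 30 lower calls over all entries became 21 and 15 with pseudocount 0.5 or no filter, 27 and 71 with a minimum mean of 10 RPM, 38 and 2 with scaling to ordinary miRNAs, 35 and 2 with that scaling and without knockout replicate 3, 32 and 8 with median centring, 32 and 16 with quantile normalization, 22 and 17 with a robust prior, and 0 and 0 with no trend (limma, where 55 and 75 had an unadjusted p under 0.05). With a library left out there were 0 to 26 higher and 0 to 18 lower calls, with 0 in both directions without control replicate 3 and 6 and 0 without control replicate 2 (limma, where 53 and 84, and 62 and 128, had an unadjusted p under 0.05). Lower calls numbered 3 without control replicate 1, 6 without knockout replicate 2, 18 without knockout replicate 1 and 15 without knockout replicate 3. Scaling to ordinary miRNAs moved the median of all tested entries from -0.27 to 0.06. With that scaling the log2 difference of the miR-22 total was -0.49, of the miR-26 total -0.31 and of both -0.33.

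The miR-22-3p to miR-22-5p log2 ratio turned to -0.38 with pseudocount 5 and lay at -0.14 to 0.22 with a library left out, and that of miR-26a-5p to miR-26b-5p at -0.023 to 0.13. The replicate block left the log2 value of miR-22-3p at -0.95 and ended its call (limma adjusted p = 0.0777), with 19 higher and 11 lower entries. Deviations of same-numbered libraries correlated over 354 entries at 0.05, 0.14 and 0.06, and not every library correlated best with its own number, so the numbers were not taken to pair the libraries. The 3 count-based alternatives (edgeR with TMM or library totals, and DESeq2) were not run because the deposited values, multiples of a step that no entry takes singly, could not be taken as complete raw counts.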
